A study of Mus musculus with 27 samples.

Results

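Mouse primary cortical cells given BDNF were compared directly with the same kind of cells given bicuculline, in 6 of the series' 27 libraries, 3 for each cue, chosen by their labels and paired by replicate number. The question was which transcripts depended on the cue, that is, which RNAs differed between a growth factor and synaptic activity. DRB, an inhibitor of elongation by RNA polymerase II, was present in both. All cells were wild type, were taken from embryos at day 16.5 and had been kept for 14 days in culture. Every group, the controls included, carried DRB at 50 µM for 2 h, so no library here shows transcription without the inhibitor. How far elongation was blocked cannot be told from these libraries. The BDNF group received 50 ng/mL BDNF for 1 h, the bicuculline group 20 µM bicuculline for 1 h, and the 3 unstimulated libraries neither. Each library was made from polyadenylated RNA, beginning with 200 ng of total RNA, and expression was given in FPKM, fragments scaled to the length of the gene model and to the library's mapped fragments. Of the 59489 entries in the deposited table, 13084 reached 1 FPKM in at least 3 of the 6 stimulated libraries and were tested. Entries at that level in exactly 3 of the 6 numbered 210, and 288 more reached it in exactly 2 and were left out.

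Bicuculline blocks GABA-A receptors, the main inhibitory receptors of the cortex, so that excitatory neurons fire in bursts. Calcium then enters through NMDA receptors and L-type channels and acts on CREB, MEF2 and other factors of early gene promoters. BDNF binds the receptor tyrosine kinase TrkB, which signals through Ras and ERK, PI3 kinase and phospholipase C gamma, and ERK acts on ELK1 and SRF at many of the same promoters. Both cues are known to induce immediate early genes in cortical neurons, such as Fos, Arc and the Egr family. DRB inhibits CDK9, the kinase of P-TEFb that releases paused polymerase into the gene body.

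The libraries held between 12812 and 13039 entries at 1 FPKM or more. Their values moved in steps that gave relative depths of 1.0 to 1.77, and at the shallowest library 10 steps for a 2 kb model came to 0.03 FPKM, far under the levels described here. Markers of excitatory neurons (summed level 615.1 to 753.1 FPKM in the 6 libraries), inhibitory neurons (405.4 to 597.2), astrocytes (522.2 to 697.1) and the oligodendrocyte lineage (199.6 to 273.0) were all present, so the cells were a mixture. Of the vascular markers 0 of 12 were tested and of the microglial markers 2 of 10, and Cldn5, Cdh5, P2ry12, Tmem119 and Itgam stayed under 0.1 FPKM in every library. In such bulk RNA, fewer cells of a type and less RNA per cell cannot be told apart. The libraries carry the numbers 7, 8 and 10 in all 3 groups, called replicates 1, 2 and 3 below. Replicate 2 stood apart in each group, and the first principal component, with 51.0% of the variance after group means were removed, separated it from the other 2. The comparison had been set as paired before this was seen, and it was made within replicate numbers. Nothing in the labels says that libraries of a group came from separate cultures, so p-values measure the spread between these samples, which may be technical.

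After BDNF, 63 of the 13084 tested genes (0.482%) were higher than after bicuculline and 12 (0.0917%) were lower, at an adjusted p under 0.05 in limma with the replicate number as a block. These 75 genes (0.573%) are called higher or lower below. Separate groups among called genes follow in part from the calls, which were made on the same libraries. BDNF and bicuculline values did not overlap for 62 of the 63 higher and 11 of the 12 lower genes. Over all tested genes, BDNF lay wholly above in 3.39% and wholly below in 2.58%. Among entries with a symbol, the largest differences were those of Arc, Ier2, Egr1, Egr2 and Egr4 on the BDNF side and of Otud1, Npas4, Trib1 and Rasl11a on the bicuculline side. All differences are on the log2(FPKM + 0.5) scale, which understates the change of genes at low levels. Among the called genes, 16 of the higher and 2 of the lower differed by at least 1 log2 unit. The median difference over all tested genes was -0.00, over the 63 higher genes 0.65 and over the 12 lower genes -0.77. Without the block, 19 genes (0.145%) were called higher and 2 (0.0153%) lower, so the counts, and most of the calls under 1 log2 unit, rest on the comparison within replicate numbers.

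**Figure D1:**
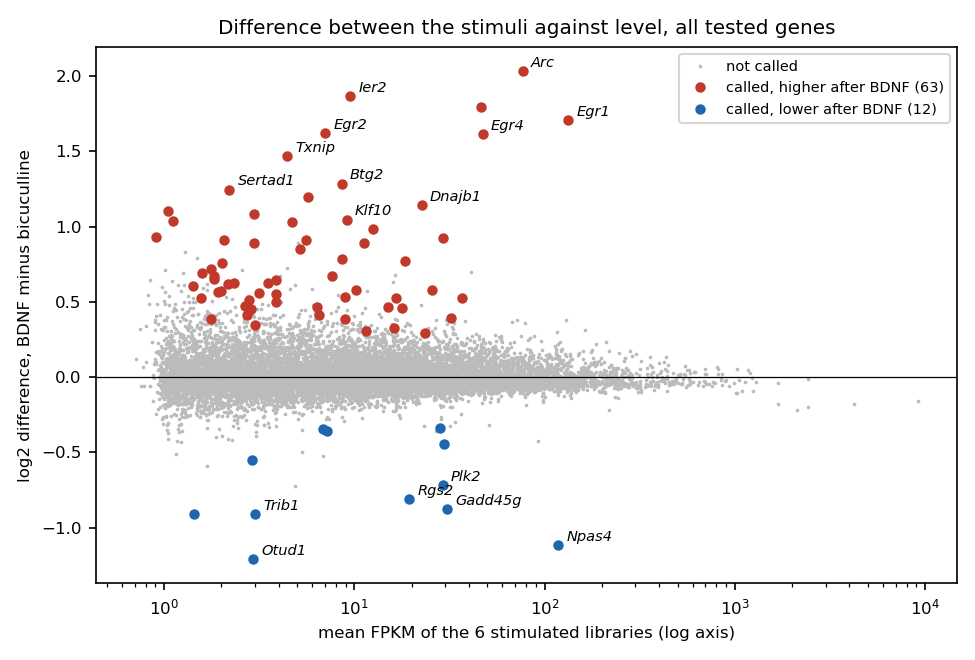
Difference between BDNF and bicuculline (log2, vertical axis) against mean level over the 6 stimulated libraries (FPKM, log axis), 1 point for each of the 13084 tested genes. The 63 genes called higher after BDNF and the 12 called lower are coloured, and the cloud of other genes is centred on -0.00.

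The early growth response (EGR) factors, zinc finger proteins that bind GC-rich sites and are classical targets of ERK and SRF, were higher after BDNF in 4 of 4 tested members. Gene lists here and below were drawn up with earlier results of these data known, so their counts are descriptions. Over all tested genes 0.482% were called higher. The median difference of the 4 was 1.62, and all 4 were also called with median-ratio scaling and with quantile normalization. Egr1 (chr18:34859823-34864981 in mm10) measured 63.4, 66.8 and 56.0 FPKM in the bicuculline libraries and 202, 176 and 237 FPKM in the BDNF libraries, against 19.9 to 25.8 FPKM in unstimulated cells. The 3 groups did not overlap, and BDNF exceeded bicuculline 3.27-fold (1.71 ± 0.13 SE, adjusted p = 0.00218, limma). Egr2 (chr10:67537868-67542187), the member known from hindbrain and myelin development, read 3.1, 3.23 and 3.25 FPKM after bicuculline and 10.9, 9.68 and 12.1 FPKM after BDNF. The bicuculline values lay within 0.2 FPKM of each other and below every BDNF value, with a difference of 1.62 ± 0.11 (adjusted p = 0.00178). Egr4 was at 22.9, 24.3 and 21.8 FPKM after bicuculline and at 69.4, 67.8 and 77.0 FPKM after BDNF, a difference of 1.61 ± 0.14 (adjusted p = 0.005).

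Egr3 differed from the other 3 in its baseline. Its unstimulated libraries were already at 28.4, 34.1 and 26.9 FPKM, and the bicuculline libraries were at 30.3, 34.6 and 26.3 FPKM, in the same range. After BDNF it read 41.4, 46.4 and 43.1 FPKM, above all 6 other libraries, so that the whole difference of 0.52 ± 0.06 (adjusted p = 0.0159) lay on the BDNF side. Egr3 was not called without the block (adjusted p = 0.353). Leaving out BDNF replicate 1 or bicuculline replicate 1 removed the calls of Egr4 (adjusted p of 0.0524 to 0.0613 over these 2 fits) and Egr3 (0.103 to 0.122). Egr1 and Egr2 stayed called without any 1 of the 6 stimulated libraries.

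Arc (chr15:74669081-74672572), the cytoskeletal regulator of AMPA receptor trafficking at the synapse, had the largest difference of all. It was nearly silent in unstimulated cells, at 0.844, 0.971 and 0.958 FPKM, and reached 27.9, 31.9 and 29.2 FPKM after bicuculline. After BDNF it stood at 115, 106 and 150 FPKM, which was 124 ± 23.1 FPKM (SD, n = 3) against 29.7 ± 2.0 FPKM. The difference was 2.03 ± 0.11 (adjusted p = 0.00116, limma), and the lowest BDNF value was far above the highest bicuculline value.

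The regulators of transcription and growth that accompanied the Egr genes on the BDNF side came from several families. A list of other early transcription regulators had 29 tested members and also holds the small Maf factor Maff of the AP-1 and ATF list. Of the 29, 7 were higher after BDNF and 3 lower (Id2, Maff and Npas4), with a list median of 0.10. The shares over all tested genes were 0.482% higher and 0.0917% lower. The list was rich in induced genes: 16 of the 29 were called above unstimulated cells after BDNF and 10 after bicuculline. Those shares were 1.5% and 0.581% over all tested genes. Ier2 (chr8:84659551-84662854), a small nuclear protein of the immediate early response, read 3.4, 3.99 and 3.99 FPKM after bicuculline and 13.5, 14.4 and 17.8 FPKM after BDNF, a difference of 1.86 ± 0.12 (adjusted p = 0.0015). Its unstimulated level was 0.858 to 1.19 FPKM, so both cues raised it and the groups stood in 3 separate steps. Btg2, an antiproliferative partner of the CCR4-NOT deadenylase, measured 4.22, 5.33 and 4.65 FPKM after bicuculline and 10.1, 11.6 and 15.5 FPKM after BDNF (difference 1.29 ± 0.11, adjusted p = 0.005). Its relative Tob1, of the same BTG/TOB family, moved alike, at 7.38, 9.07 and 8.28 FPKM after bicuculline and 15.3, 16.6 and 18.5 FPKM after BDNF (difference 0.98 ± 0.07, adjusted p = 0.00171). Neither gene's groups overlapped, as was so for most genes called on these libraries. Btg2 lost its call only without bicuculline replicate 1 (adjusted p = 0.0593), and Tob1 and Ier2 kept theirs without any 1 stimulated library.

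Srf, the serum response factor itself, was at 14.0, 12.1 and 14.3 FPKM after bicuculline and at 25.2, 19.4 and 25.7 FPKM after BDNF. The difference was 0.77 ± 0.05 (adjusted p = 0.0015). Unstimulated cells gave 9.47 to 11.8 FPKM, and the bicuculline libraries did not pass the test against them (0.28, adjusted p = 0.0795). Klf10, a Krüppel-like repressor known from TGF-beta signalling, separated the cues more sharply. It read 6.85, 5.41 and 6.98 FPKM in unstimulated cells, 6.25, 4.99 and 6.07 FPKM after bicuculline and 13.3, 10.8 and 13.2 FPKM after BDNF. Its difference of 1.05 ± 0.04 had the smallest standard error among the genes that differed by at least 1 log2 unit (adjusted p = 0.000431), and its change after bicuculline was -0.14 (adjusted p = 0.477). Etv3, an ETS family repressor, showed the same arrangement, at 2.05, 1.96 and 1.81 FPKM after bicuculline and 4.21, 3.78 and 4.08 FPKM after BDNF, with unstimulated cells at 1.63 to 1.88 FPKM (difference 0.89 ± 0.06, adjusted p = 0.00171). Srf, Klf10 and Etv3 were called without any 1 of the 6 libraries, and Srf was not called without the block (adjusted p = 0.0978).

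Txnip, an arrestin-like protein that binds thioredoxin and limits glucose uptake, was not moved by bicuculline beyond its spread. It measured 2.13, 1.56 and 2.38 FPKM in unstimulated cells, 1.83, 2.16 and 2.19 FPKM after bicuculline and 5.87, 5.02 and 9.59 FPKM after BDNF. The difference was 1.47 ± 0.15 (adjusted p = 0.0114), with BDNF replicate 3 well above the other 2. Without the block it missed the threshold (adjusted p = 0.0597), and the same was so without BDNF replicate 1 or bicuculline replicate 1 (0.0833 to 0.103). Sertad1, a transcriptional coregulator that also binds CDK4, read 1.06, 1.02 and 1.2 FPKM after bicuculline and 4.19, 2.77 and 2.99 FPKM after BDNF, a difference of 1.25 ± 0.17 (adjusted p = 0.028). Its call was lost in 4 of the 6 fits without 1 library (without BDNF replicate 1 or 3, or bicuculline replicate 1 or 2, adjusted p from 0.0889 to 0.226), more than for any other gene that differed by at least 1 log2 unit. The remaining called regulator of this list was Ier5, another immediate early response protein, with a difference of 0.53 (adjusted p = 0.0312) that was lost without any 1 of the 6 libraries (0.0586 to 0.184).

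**Figure D2:**
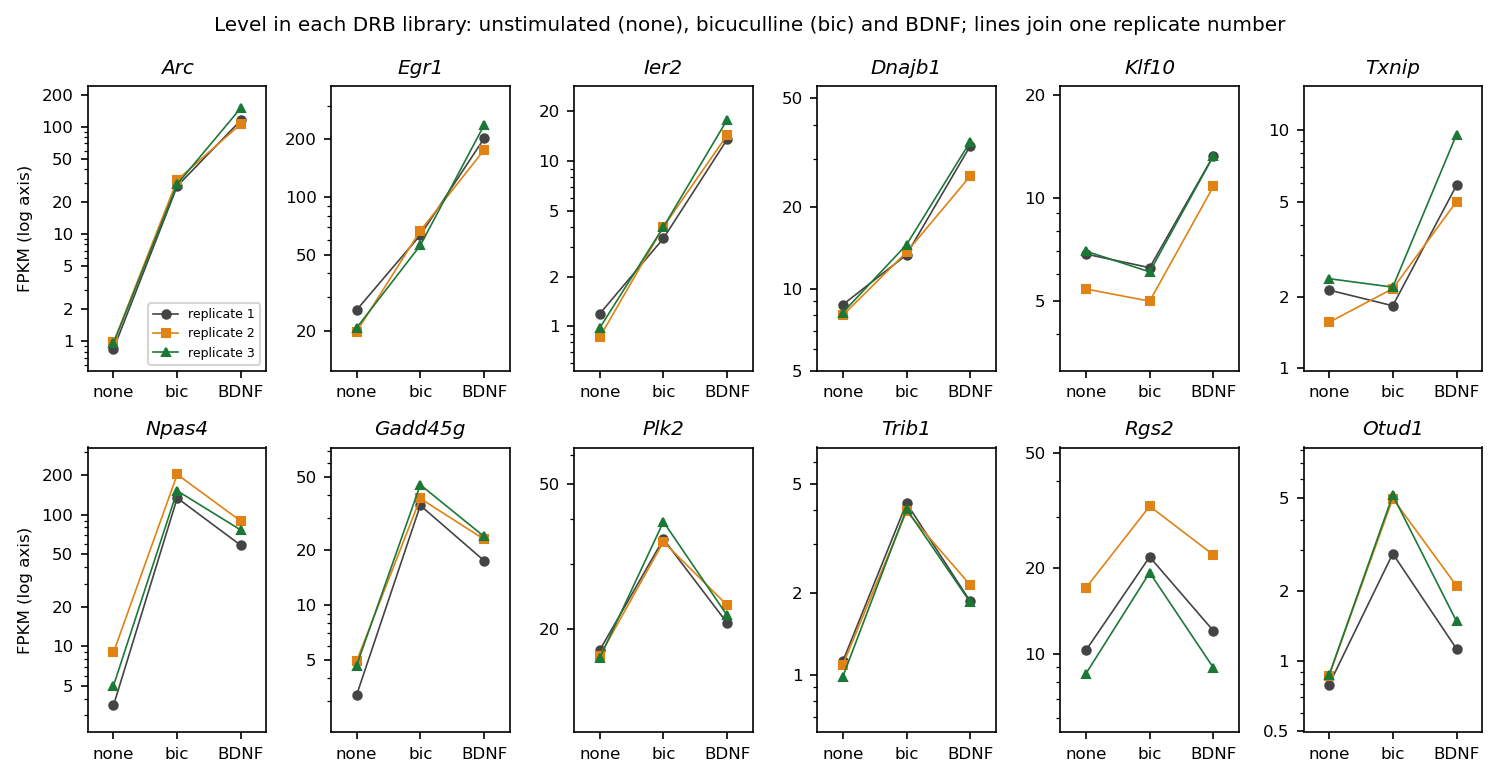
FPKM (log axis) of 12 called genes in each of the 9 DRB libraries, unstimulated (none), bicuculline (bic) and BDNF, with 1 symbol for each library and lines joining those of 1 replicate number. Arc, Egr1 and Ier2 climb in 3 steps from unstimulated to bicuculline to BDNF, Klf10 lies above its unstimulated range in the BDNF libraries and not in the bicuculline libraries, and Npas4, Trib1 and Plk2 are highest after bicuculline.

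Promoters of the called genes were searched for the DNA elements through which the 2 pathways are known to act. RefSeq windows of 250 bases before the start (GRCm38.p6, the patched release of mm10) were found for 37 of the 51 higher genes with a symbol, 11 of the 12 lower genes and 8737 tested genes, and both strands were read. The CArG box that SRF binds (CC, any mixture of 6 A or T, GG) stood in 3 of the 37 (8.11%), in 0 of the 11 and in 1.36% of the 8737 tested genes. The 3 were Egr2, Srf and Dusp5. A gene was counted when any of its windows matched. Called genes without a window were not searched, so a gene unnamed here may still carry a motif. The full CREB site TGACGTCA stood in 4 of the 37 (10.8%; Btg2, Cbx8, Ccdc86 and Ppp1r15a), in 2 of the 11 (18.2%; Plk2 and Maff) and in 3.32% of all. The AP-1 letters TGANTCA were in 1 of the 37 and 0 of the 11, against 4.8% of all, and the EGR letters GCGNGGGCG in 3 and 2, against 11.4% of all. These are letter matches in a short window, in small numbers of genes, and they are not binding measurements. Over all 32851 RefSeq windows, counted by window and not by gene, the shares were 1.47%, 1.55%, 6.75% and 4.7% in the same order. Windows from 3 genes are shown 5′ to 3′ on the gene's own strand with the matches in capitals: Srf (chr17:46556163-46556412, minus strand), with 2 CArG boxes 82 and 62 bases before its start and the EGR letters 101 bases before it; Btg2 (chr1:134079156-134079405, minus strand), a BDNF-side gene with the CREB site at 166 and the EGR letters at 131; and Plk2 (chr13:110394794-110395043, plus strand), a bicuculline-side gene with the CREB site at 62.
Srf: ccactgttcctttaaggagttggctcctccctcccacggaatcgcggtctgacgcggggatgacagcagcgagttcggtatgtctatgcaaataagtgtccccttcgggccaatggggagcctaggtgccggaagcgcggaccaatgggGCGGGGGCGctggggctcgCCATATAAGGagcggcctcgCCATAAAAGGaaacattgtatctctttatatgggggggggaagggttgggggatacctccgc
Btg2: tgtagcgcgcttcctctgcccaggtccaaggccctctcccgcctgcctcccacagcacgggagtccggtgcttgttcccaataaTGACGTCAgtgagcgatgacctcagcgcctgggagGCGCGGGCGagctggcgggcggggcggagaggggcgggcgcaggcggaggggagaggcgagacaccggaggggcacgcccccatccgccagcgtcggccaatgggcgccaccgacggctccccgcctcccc
Plk2: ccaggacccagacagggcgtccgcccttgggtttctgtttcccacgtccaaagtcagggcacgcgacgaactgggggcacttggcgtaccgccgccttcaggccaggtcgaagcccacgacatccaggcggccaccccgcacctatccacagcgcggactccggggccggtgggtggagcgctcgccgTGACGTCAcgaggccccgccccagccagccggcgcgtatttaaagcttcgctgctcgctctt
The CREB site was thus present upstream of genes on each side of the comparison.

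Of the largest differences on the BDNF side, 3 were those of genes with known roles in chromatin, named by their size and not as members of a fixed list. Cbx8, a chromodomain subunit of Polycomb repressive complex 1, read 3.24, 2.53 and 3.01 FPKM after bicuculline and 6.91, 5.17 and 7.53 FPKM after BDNF (difference 1.03 ± 0.08, adjusted p = 0.00305). Phf13, a PHD finger protein that reads methylated histone H3, read 3.25, 4.21 and 3.63 FPKM and then 8.08, 6.23 and 7.86 FPKM (0.91 ± 0.13, adjusted p = 0.0367). Elmsan1, a scaffold of a histone deacetylase complex, read 1.83, 1.79 and 1.49 FPKM and then 4.86, 3.06 and 4.79 FPKM (1.08 ± 0.14, adjusted p = 0.0221). In all 3 the smallest BDNF value was that of replicate 2, and none of the 3 passed the test of bicuculline against unstimulated cells (adjusted p of 0.206, 0.916 and 0.878). Cbx8 missed the threshold without the block (0.0774), as did Elmsan1 (0.0569). Elmsan1 also lost its call without BDNF replicate 1 or 3 or bicuculline replicate 1 (0.0788 to 0.184), and Phf13 without these or bicuculline replicate 3 (0.05 to 0.268).

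Dnajb1, the Hsp40 cochaperone of Hsp70, was the called member among 15 tested genes of the heat shock and unfolded protein responses. It read 13.3, 13.6 and 14.5 FPKM after bicuculline and 33.4, 25.9 and 34.6 FPKM after BDNF, with unstimulated cells at 7.99 to 8.73 FPKM. The 3 groups did not overlap. The difference was 1.14 ± 0.08 (adjusted p = 0.00218), and it was called without any 1 library. The median difference of the list was 0.02, so Dnajb1 stood well away from it. Over all tested genes 0.482% were called higher. At an unadjusted p under 0.05, 5 members of the list were higher and 0 lower, against 5.11% of all tested genes higher.

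Among the 63 higher entries, 12 were gene models without a symbol, and for 3 of them the annotation names a known early gene or microRNA host. The model at chr8:84972736-84978719 covered the whole of Junb, the AP-1 subunit, and 40.0% of its neighbour Prdx2. It read 19.6, 23.9 and 18.1 FPKM after bicuculline and 75.1, 66.2 and 75.5 FPKM after BDNF, from 2.38 to 3.52 FPKM in unstimulated cells (difference 1.80 ± 0.13, adjusted p = 0.00218). The model at chr4:95050234-95052171 lay wholly inside Jun, where the antisense RNA Junos also begins. It read 20.2, 18.7 and 21.1 FPKM after bicuculline and 39.1, 33.1 and 43.6 FPKM after BDNF (0.92 ± 0.05, adjusted p = 0.0012), from 10.7 to 13.5 FPKM. Neither model's groups overlapped, and both were called without the block and without any 1 stimulated library. Junb and Jun have no entry under their own symbols in the table used here, and each of these models also takes in another annotated gene, so the values are those of the models.

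The third model, at chr11:75172475-75177633, spanned the host transcript 1700016P03Rik with the 2 microRNA genes Mir212 and Mir132 and overlapped Ovca2 on the other strand. The Mir212 and Mir132 pair is a classical CREB target in neurons. The mature microRNAs were not measured in polyadenylated RNA, and their RefSeq sequences (GRCm38.p6) are shown because the 2 main arms have 1 seed (bases 2 to 8, in capitals), AACAGUC, and so would address the same letters in targets.
miR-212-3p: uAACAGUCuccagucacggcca
miR-132-3p: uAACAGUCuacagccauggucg
The host model read 0.311, 0.453 and 0.482 FPKM in unstimulated cells, 2.33, 3.48 and 4.01 FPKM after bicuculline and 6.34, 7.9 and 10.2 FPKM after BDNF. All its BDNF values lay above its bicuculline values, as for 62 of the 63 higher genes, which were called on these same libraries. The difference was 1.20 ± 0.09 (adjusted p = 0.00218) and was called without any 1 library, but not without the block (0.114). Mir22hg, the host of miR-22, was also higher, by 0.33 ± 0.05 (adjusted p = 0.0342). It read 13.6, 16.3 and 13.1 FPKM after bicuculline and 16.6, 21.2 and 16.7 FPKM after BDNF, and its call was lost without any 1 of 5 libraries, all but bicuculline replicate 3 (0.0996 to 0.202). The other 9 models without a symbol differed by 0.39 to 1.10 and lay, among other places, within or across Bicral (2 models, one of 29 bases), Elp5, Irf2bpl, Bbof1 with Rnf113a2, Gm21781, Gm43860 and 9430064I24Rik, the last overlapping Hsd3b7.

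TrkB signalling switches on its own brakes, the dual-specificity phosphatases that remove phosphate from ERK and the Sprouty and Spred adaptors that dampen Ras. Of 18 tested genes of this feedback group 1 was called, Dusp5, a nuclear ERK phosphatase, and the list median was 0.11. Among all tested genes 0.573% were called in either direction. Dusp5 read 1.51, 1.2 and 1.38 FPKM after bicuculline and 2.54, 2.46 and 2.96 FPKM after BDNF (difference 0.76 ± 0.09, adjusted p = 0.0149), and unstimulated cells read 0.582 to 0.678 FPKM. It lost the call without any 1 of the BDNF libraries or bicuculline replicate 1 (0.061 to 0.0858), and no member of the list was called with quantile normalization. Dusp1, which acts on ERK, p38 and JNK, was at 10.5, 14.2 and 12.8 FPKM after bicuculline and at 17.7, 19.3 and 21.6 FPKM after BDNF, and its difference of 0.63 ± 0.10 missed the threshold (adjusted p = 0.0681). Dusp6, the cytoplasmic ERK phosphatase, leaned to the other side, at 35.6, 32.9 and 37.4 FPKM after bicuculline and 27.6, 27.4 and 29.0 FPKM after BDNF (-0.33 ± 0.07, adjusted p = 0.172). For Dusp1 and Dusp6 alike the 2 groups of 3 did not overlap, which was so for 3.39% of tested genes with BDNF above and 2.58% with BDNF below.

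None of the other feedback genes was called. Errfi1, an inhibitor of the EGF receptor family, differed by 0.38 ± 0.08 (adjusted p = 0.161), with both groups above the unstimulated range. Spry2 and Spry4 differed by 0.06 and 0.10, Spry1 by -0.24 (adjusted p = 0.29), Spry3 by 0.30 (adjusted p = 0.184) and Spred1, Spred2 and Spred3 by 0.13 to 0.17. Dusp8 differed by 0.23, Nf1 by 0.17, Dusp3 by 0.03, Rasa1 by 0.01, Dusp7 by 0.00, Dusp4 by -0.02 and Dusp14 by -0.13. At an unadjusted p under 0.05, 7 of the 18 were higher and 2 lower, beside 5.11% and 3.16% of all tested genes.

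The genes that were higher after bicuculline included transcription regulators, kinases and other signalling proteins. Of 23 tested early effectors, that is, early genes that do not encode transcription factors, 6 were lower after BDNF and 3 higher (Arc, Plk3 and Ppp1r15a). Their median was -0.01. Over all tested genes, 0.0917% were called lower and 0.482% higher. This list too was rich in induced genes, with 12 of the 23 called above unstimulated cells after BDNF and 14 after bicuculline. Beside them stood 1.5% and 0.581% of all tested genes. Npas4 (chr19:4984354-4990316), a neuronal transcription factor known for its dependence on calcium entry and for control of inhibitory synapses, rose from 3.57, 9.0 and 5.03 FPKM in unstimulated cells to 133, 201 and 151 FPKM after bicuculline. After BDNF it read 58.3, 89.0 and 76.1 FPKM, below every bicuculline value and above every unstimulated one. The difference was -1.11 ± 0.12 (adjusted p = 0.0133), a 2.17-fold excess after bicuculline. Replicate 2 was the highest of each group, and without the block the adjusted p was 0.661. Without BDNF replicate 1 or bicuculline replicate 1 the adjusted p ran from 0.103 to 0.109.

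Gadd45g (chr13:51846670-51848475), a stress sensor that activates p38 and JNK kinases and takes part in DNA demethylation, read 3.22, 4.95 and 4.67 FPKM in unstimulated cells and 35.1, 38.3 and 45.5 FPKM after bicuculline. After BDNF it read 17.5, 22.9 and 23.8 FPKM, a difference of -0.88 ± 0.08 (adjusted p = 0.005), with 3 separate groups. Plk2, the polo-like kinase that weakens overactive synapses, read 35.2, 34.6 and 39.3 FPKM after bicuculline and 20.7, 23.2 and 21.7 FPKM after BDNF, near its unstimulated 16.6 to 17.4 FPKM (difference -0.72 ± 0.06, adjusted p = 0.00501). Trib1, a pseudokinase that brings substrates to the ubiquitin ligase COP1, read 4.25, 3.97 and 4.04 FPKM after bicuculline and 1.85, 2.13 and 1.84 FPKM after BDNF (-0.91 ± 0.07, adjusted p = 0.00218). Plk2 and Trib1 were the 2 lower genes called without the block, and Trib1 was the lower gene called without any 1 of the 6 libraries. Leaving out BDNF replicate 1 or bicuculline replicate 1 removed the calls of Gadd45g (0.0503 to 0.0699) and Plk2 (0.0593 to 0.0699).

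Otud1, a deubiquitinase, had the largest difference on this side. It read 0.793, 0.866 and 0.87 FPKM in unstimulated cells, 2.88, 4.96 and 5.12 FPKM after bicuculline and 1.13, 2.1 and 1.48 FPKM after BDNF (-1.21 ± 0.14, adjusted p = 0.0158), and its bicuculline libraries were widely spread. Rasl11a, a small GTPase of the Ras superfamily, read 1.7, 1.87 and 2.53 FPKM after bicuculline and 0.766, 0.757 and 1.0 FPKM after BDNF (-0.91 ± 0.09, adjusted p = 0.0114). Rgs2, which speeds GTP hydrolysis by G alpha subunits, was one of only 2 called genes whose groups overlapped, the other being Gpr3. The calls were made on the same libraries, so separate groups among called genes follow in part from that choice. Of all tested genes, 3.39% had every BDNF value above the bicuculline values and 2.58% every BDNF value below. Rgs2 read 21.8, 32.7 and 19.2 FPKM after bicuculline and 12.1, 22.2 and 8.98 FPKM after BDNF, so that BDNF replicate 2 lay above 2 bicuculline libraries while each BDNF library lay below its own replicate number. Its difference of -0.81 ± 0.09 (adjusted p = 0.0114) was called only within replicate numbers, and without the block the adjusted p was 1.0. The calls of Rgs2 (0.103 to 0.109) and Rasl11a (0.0644 to 0.0833) were lost without BDNF replicate 1 or bicuculline replicate 1. That of Otud1 was lost without these or BDNF replicate 3 (0.0524 to 0.139).

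The other 5 lower genes differed by less. Maff, a small Maf factor, read 3.7, 3.36 and 3.5 FPKM after bicuculline and 2.05, 2.35 and 2.34 FPKM after BDNF, both far above the unstimulated 0.455 to 0.521 FPKM (-0.55 ± 0.07, adjusted p = 0.0279). Sgk1, the serum and glucocorticoid inducible kinase, read 7.56, 8.53 and 7.19 FPKM after bicuculline and 5.49, 6.92 and 5.61 FPKM after BDNF, the latter in the unstimulated range of 5.35 to 6.84 FPKM or just above it (-0.35 ± 0.05, adjusted p = 0.0401). B3galt2, a galactosyltransferase, and Neurod6, a factor of excitatory neurons, behaved in the same manner, with differences of -0.36 ± 0.05 (adjusted p = 0.0401) and -0.44 ± 0.06 (adjusted p = 0.0333). Neurod6 was the called gene among 10 tested excitatory markers, whose median difference was 0.04, so the marker list as a group did not move with it. Of all tested genes 0.0917% were called lower. Id2, an inhibitor of basic helix-loop-helix factors, read 30.0, 32.7 and 31.6 FPKM after bicuculline and 23.1, 26.4 and 24.8 FPKM after BDNF (-0.34 ± 0.05, adjusted p = 0.0433), and neither cue passed the test against the unstimulated 23.6 to 28.7 FPKM. None of the 5 was called without the block, and each was lost in 3 to 5 of the fits without 1 library: Neurod6 without BDNF replicate 1 or 3 or bicuculline replicate 1 (0.0804 to 0.277), Maff without these or BDNF replicate 2 (0.0817 to 0.222), and Sgk1, B3galt2 and Id2 without any 1 library but bicuculline replicate 3 (0.0579 to 0.345).

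**Figure D3:**
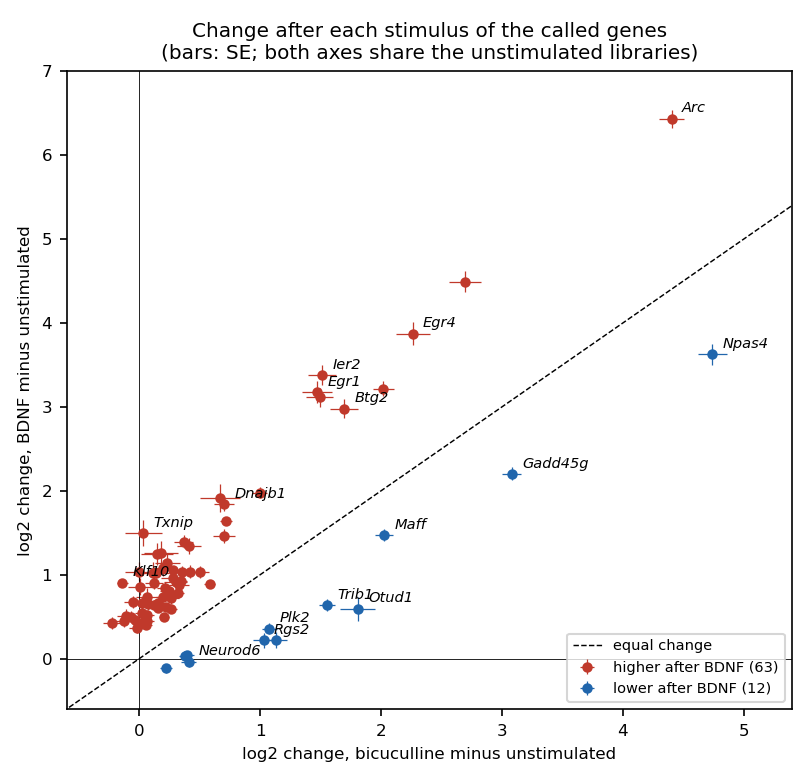
Change from unstimulated cells after BDNF (log2, vertical axis) against the change after bicuculline (log2, horizontal axis) for the 63 genes called higher (red) and the 12 called lower (blue), with bars for the standard error and a dashed line of equal change. The 2 axes share the unstimulated libraries. Higher genes lie above the line, many at a bicuculline change near 0, and lower genes below it.

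Each cue was also set against the unstimulated libraries, which both changes share. The genes were chosen on the same libraries, so a larger BDNF change on one side and a larger bicuculline change on the other follow in part from that choice, and the values are given as a description. All 63 higher genes were called above unstimulated cells after BDNF, as were 1.5% of all tested genes, and 15 of the 63 were also called after bicuculline, as were 0.581% of all. Their median change was 0.90 after BDNF and 0.20 after bicuculline. Of the 12 lower genes, 11 were called above unstimulated cells after bicuculline and 5 after BDNF, Id2 by neither, and their median changes were 1.11 and 0.29. The 15 genes that both cues raised, with BDNF above, included Arc, Ier2, Egr1, Egr2, Egr4, Btg2, Tob1, Dnajb1, Dusp5, Ier5, Ppp1r15a and the models over Junb, Jun and the miR-132 and miR-212 host. The 5 that both raised, with bicuculline above, were Npas4, Gadd45g, Maff, Trib1 and Plk2.

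Other early genes showed no difference that passed the test, and for these the interval of the difference is given at 95%. Fos, the AP-1 partner, read 7.33, 16.9 and 11.1 FPKM in unstimulated cells, 145, 148 and 141 FPKM after bicuculline and 171, 168 and 202 FPKM after BDNF. The stimulated groups did not overlap, but the difference of 0.31 had an interval from -0.18 to 0.81 (adjusted p = 0.67), and in a fit of only the 6 stimulated libraries the adjusted p was 0.782. Fosb read 44.2, 49.0 and 40.1 FPKM after bicuculline and 46.5, 49.2 and 53.4 FPKM after BDNF (0.16, interval -0.39 to 0.71). Nr4a1, an orphan nuclear receptor, read 61.9, 74.6 and 53.9 FPKM and 56.8, 78.5 and 67.6 FPKM (0.09, interval -0.29 to 0.47). In each of these 3 an Arc-sized difference of 2.03 lay outside the interval, and a difference like that of Dusp5 was inside it only for Fos. Nr4a3 differed by 0.02 and Atf3 by 0.15.

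Other early genes came closer to the threshold. Nr4a2, the nuclear receptor needed for dopamine neurons, read 5.51, 7.96 and 5.25 FPKM after bicuculline and 3.53, 3.3 and 3.74 FPKM after BDNF (-0.72 ± 0.13, adjusted p = 0.0881), and Nr4a2 after BDNF was not called above its unstimulated 2.51 to 2.63 FPKM (adjusted p = 0.349). Fosl2 read 8.08, 10.2 and 6.22 FPKM and 4.64, 7.24 and 4.73 FPKM (-0.52 ± 0.08, adjusted p = 0.0549), with 1 BDNF value above 1 bicuculline value. Mafk, a sister of Maff, differed in the opposite sense, by 0.39 ± 0.06 (adjusted p = 0.0603). The AP-1 and ATF factors thus gave 0 members higher and 1 lower of 6 tested by name, and the NR4A receptors 0 and 0 of 3. Over all tested genes the shares were 0.482% and 0.0917%.

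Of the neurotrophin genes and known activity-regulated genes in the panel, none of the following was called between the cues. Bdnf, the ligand's own transcript, read 1.74 to 1.85 FPKM in unstimulated cells, 2.44, 2.6 and 2.65 FPKM after bicuculline and 1.86, 3.28 and 2.01 FPKM after BDNF, with replicate 2 above and the other 2 below the bicuculline range (-0.12 ± 0.14, adjusted p = 0.776). Ntrk2, which encodes TrkB, read 215, 166 and 179 FPKM after bicuculline and 220, 165 and 219 FPKM after BDNF (0.10 ± 0.07, adjusted p = 0.663). Vgf, a secreted neuropeptide precursor known as a BDNF target, read 31.9, 24.1 and 37.9 FPKM after bicuculline and 46.1, 51.8 and 53.3 FPKM after BDNF. All BDNF values of Vgf were above all bicuculline values, and the difference of 0.70 ± 0.13 (95% interval 0.40 to 1.00) missed the threshold (adjusted p = 0.0937) and was 0.51 without BDNF replicate 2 (adjusted p = 0.0392). Vgf was called above unstimulated cells after BDNF (0.73, adjusted p = 0.0411), and its change after bicuculline was 0.03 (adjusted p = 0.976). Nptx2, the neuronal pentraxin that clusters AMPA receptors, read 3.93, 3.37 and 4.1 FPKM after bicuculline and 3.86, 6.05 and 3.93 FPKM after BDNF, so its 0.23 ± 0.16 (adjusted p = 0.677) came from BDNF replicate 2, and without that library it was -0.02. Homer1, a postsynaptic scaffold with a short early isoform that gene-level values do not resolve, differed by 0.25 ± 0.08 (adjusted p = 0.453), and Per1, a clock gene with CREB sites, by 0.35 ± 0.08 (adjusted p = 0.202).

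No tested member was called in the lists of signalling and synaptic genes that carry the 2 cues, by limma with the block or without it. These were 17 secreted and activity-regulated peptides (2 higher and 0 lower at an unadjusted p under 0.05), 24 genes of TrkB and its adaptors (1 and 1), 22 MAPK cascade genes (2 and 0), 30 genes of calcium and CREB signalling (5 and 0), 18 of GABA-A receptors and GABA synthesis (4 and 0), 14 ionotropic glutamate receptors (0 and 0), 22 postsynaptic scaffolds (1 and 1) and 28 voltage-gated channels (3 and 0). Over all tested genes 5.11% were higher and 3.16% lower at that unadjusted p. Higher members made a larger share than this of the peptide, MAPK, calcium and CREB, GABA and channel lists. In other settings, the scaffold Lrrtm1 (-0.36, adjusted p = 0.0559; named after its values were seen) was called lower with quantile normalization, with median-ratio scaling and without bicuculline replicate 2 or 3, and Vgf higher without BDNF replicate 2. The list medians ran from 0.03 for the secreted peptides and MAPK genes to 0.14 for the channels, against -0.00 for all genes, and several rested on single libraries: without bicuculline replicate 3 the median was 0.036 for the channels, 0.022 for the scaffolds, 0.017 for the calcium and CREB genes, the GABA genes and the glutamate receptors, and 0.00048 for the TrkB genes. The RNA groups linked to nuclear retention and splicing gave the same count of 0: 18 CLK kinases and SR proteins (1 and 0), 7 nuclear noncoding RNAs (0 and 0) and 9 small nucleolar RNA hosts (0 and 0). Within them Clk1 differed by 0.10, Clk4 by 0.09 and Meg3 by 0.23 ± 0.12. Meg3 varied more between replicate numbers, from 129 to 332 FPKM after bicuculline, than between cues. The 25 genes of oxidative phosphorylation had a median of -0.04 (0 and 0).

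**Figure D4:**
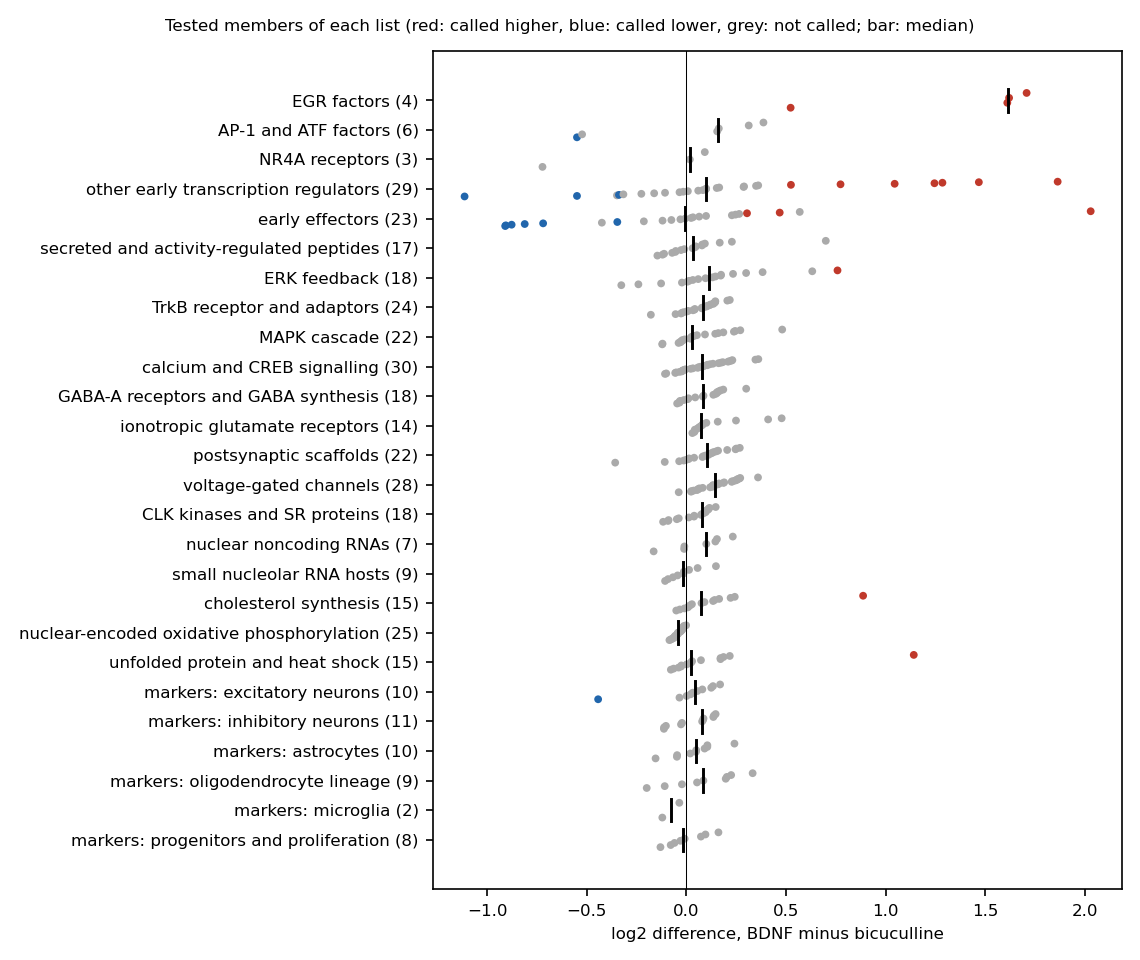
Log2 difference between BDNF and bicuculline for every tested member of each gene list, with members called higher in red, called lower in blue, uncalled in grey and a bar at the list median (number tested in parentheses). The 4 EGR factors lie to the right of 0.5, the early effectors spread to both sides, and the medians of the signalling, synaptic and marker lists lie near 0, with single members out to 0.70 (Vgf, not called) and -0.44 (Neurod6, called lower).

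The called genes of both sides tended to be short with few introns, a property that the comparison did not use. Exceptions included Sgk1 (117720 bases) and Elmsan1 (69706 bases). Annotated spans from GENCODE M21 on the same build were matched for 51 higher genes, 12 lower genes and 11030 tested genes. The median span was 6714 bases for the higher genes and 5311.5 bases for the lower ones, beside 27175.5 bases for all. Spans under 10 kb were found in 68.6% and 75.0%, against 22.1% of all. Uncalled genes that both cues raised could be short too, as Fos (3384 bases) and Fosb (7356 bases), or longer, as Nr4a1 (20530 bases). The called genes were not compared with induced genes that did not differ between the cues. The median number of introns in the transcript with most was 2 and 3, against 9, and at most 2 introns were found in 51.0% and 41.7%, against 10.4%. The higher genes also started lower, with a median unstimulated level of 2.31 FPKM, beside 5.87 FPKM for the lower genes and 9.75 FPKM for all. These are descriptions without a test; level, length and intron number vary together across genes, and their parts in the differences were not tested.

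**Figure D5:**
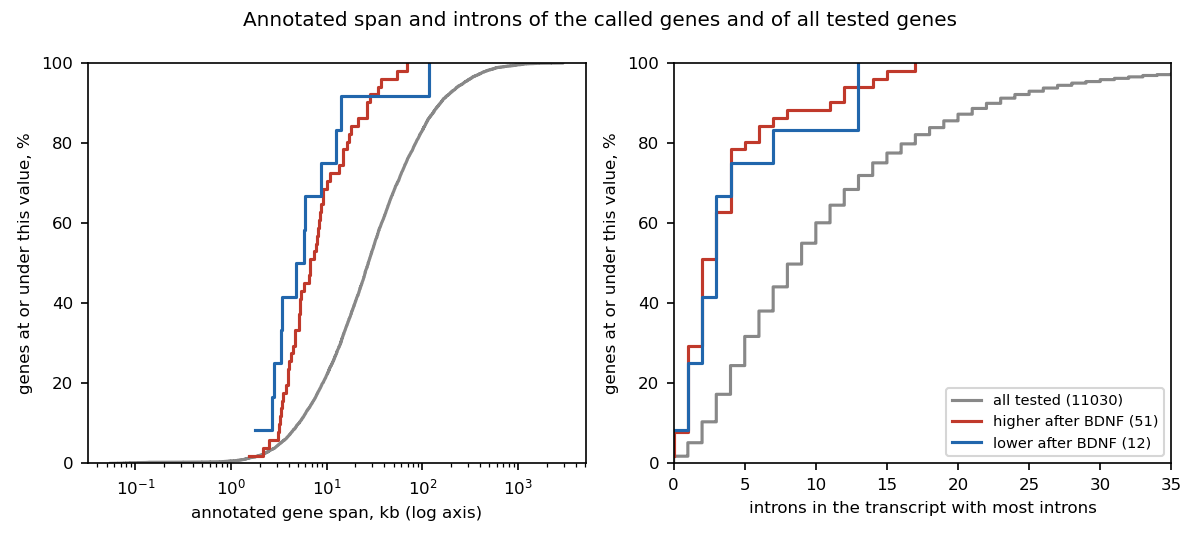
Cumulative share of genes (%) by annotated span (kb, log axis, left) and by introns in the transcript with most (right), for the 51 higher genes, the 12 lower genes and the 11030 tested genes with an annotation. Both called groups lie to the left of all tested genes in the 2 panels, and at most 2 introns were found in 51.0%, 41.7% and 10.4%.

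The series also holds libraries of cells given triptolide, which blocks initiation, in place of DRB, with bicuculline but without BDNF, and these give a readout of the called genes that the comparison did not use. Bicuculline exceeded unstimulated whole cells in 3 of 3 pairs for 11 of the 12 lower genes and 35 of the 63 higher genes. The share of all tested genes was 31.8%, and the median changes were 0.29, 0.15 and 0.04 in this order. Several called genes lay under the 1 FPKM filter in these triptolide libraries, among them Otud1 (0.127 to 0.374), Maff (0.212 to 0.511) and Ier2 (0.189 to 0.485). Npas4 read 1.44, 1.07 and 1.6 FPKM in unstimulated and 2.53, 1.73 and 2.96 FPKM in bicuculline libraries, a change of 0.62, against 4.74 under DRB, and the 2 inhibitor settings were not compared by a test. In unstimulated triptolide cells, with each fraction scaled to its own total, the nucleus exceeded the cytosol in 3 of 3 pairs for 37 of the 63 higher and 6 of the 12 lower genes, beside 42.9% of all.

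Counts depended on single libraries of replicate 1. Without BDNF replicate 1 there were 16 calls, without bicuculline replicate 1 15, and without BDNF replicate 3 29, while leaving out each of the other 3 gave 53 to 85. With replicate 1 left out of all 3 groups, which leaves 2 residual degrees of freedom, limma called 0 genes and 464 had an unadjusted p under 0.05. The 14 genes called without any 1 of the 6 libraries were Arc, Ier2, Egr1, Egr2, Dnajb1, Klf10, Cbx8, Tob1, Etv3, Srf, Trib1 and the models over Junb, Jun and the miR-132 and miR-212 host. For the 75 called genes the sign of the difference was the same under every alternative in which the gene was tested. That follows in part from their choice on the same libraries.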

How the data were processed

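Expression was taken from one table of FPKM values that the authors deposited, with 1 column a library and coordinates in mm10. STAR 2.4.0, SAMtools and Picard are named per the submitters' processing notes; of the counting tool, the strand setting and multimapping reads it can only be said: not given in the sources used here. Values were moved to log2(FPKM + 0.5) and fitted with limma 3.58.1 (R 4.3.3) with trend and robust moderation on all 9 DRB libraries, group and replicate number as terms and 4 residual degrees of freedom. The contrast was BDNF minus bicuculline over genes at 1 FPKM or more in at least 3 of the 6 stimulated libraries, and Benjamini-Hochberg adjustment ran over all 13084. Groups came from the labels. The replicate numbers pair the libraries: deviations from the group means correlated at 0.457 to 0.903 in every same-numbered pair of libraries.

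Whole fragments were not recovered, so no count model was used. The smallest steps of the values gave relative depths of 1.0 to 1.77, and whether a step is a whole fragment was not resolved. The fit was tested on simulated data. Alternatives were no replicate block, other pseudocounts (0.1 and 1), filters, scalings and moderation, only the 6 stimulated libraries, and leaving out each library or replicate number.

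Named genes were the 16 largest higher and up to 12 largest lower called genes with a symbol, a mean of at least 2 FPKM and 1 sign in all pairs, the EGR, AP-1, NR4A and ERK feedback lists, a panel of early genes and called list members. Ccdc86, Gpr3, Mir22hg, the models without a symbol and the genes added in the closing section were chosen after their values were seen. Some called genes are not reported here. The members and lists were chosen with earlier results of these data known. Annotation was GENCODE M21; promoters and microRNAs were from RefSeq GRCm38.p6.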

Additional observations from a re-analysis of the deposited data

How the results depend on the processing

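Of the 75 calls (63 higher, 12 lower), 21 held with no replicate block (19 higher, 2 lower), and this fit without the pairing moved the count most among settings that kept all 9 libraries. Only the 6 stimulated libraries with the block, at 2 residual degrees of freedom, gave 18 (14 and 4). Testing every gene with a value above 0 gave 45 (34 and 11) of 34691, 32 of them shared, and 5 FPKM as the minimum gave 40 (32 and 8) of 8850. Without 1 library the counts ran from 15 to 85 (14 to 67 higher, 1 to 18 lower). Without 1 replicate number they ran from 0 to 82 (0 to 63 higher, 0 to 19 lower). Pseudocounts of 0.1 and 1, median-ratio scaling, quantile normalization and plain moderation left 70, 74, 70, 62 and 71 of the 75 called. The cause of these shifts was not tested.

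Signs reversed for uncalled genes only, which follows in part from calling genes on the same libraries. With quantile normalization Dusp7 was -0.018. Over the fits that left out a library or a replicate number, the difference ran from -0.039 to 0.37 for Nptx2, -0.0058 to 0.29 for Nf1, -0.0024 to 0.40 for Fosb, -0.061 to 0.23 for Nr4a1, -0.00056 to 0.051 for Dusp3, -0.069 to 0.12 for Nr4a3, -0.063 to 0.070 for Rasa1, -0.049 to 0.049 for Dusp7 and -0.19 to 0.12 for Dusp4. Depth limited models under about 0.03 FPKM, far below the filter.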

Other observations

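Several called genes outside the lists described above regulate transcription. Erf, an ETS repressor that ERK phosphorylates, read 12.8, 13.3 and 14.4 FPKM after bicuculline and 20.2, 19.1 and 19.5 FPKM after BDNF (difference 0.52 ± 0.05, adjusted p = 0.0114), with unstimulated cells at 12.2 to 12.6 FPKM. It was called without the block. Mnt, a repressing partner of MAX, Med26, a Mediator subunit, and Pcf11, a transcription termination factor, differed by 0.47, 0.51 and 0.42 and were not called without the block (adjusted p of 0.09, 1.0 and 0.413). The call of Erf was lost without BDNF replicate 1 or bicuculline replicate 1 (0.088 to 0.109). Those of the other 3 were lost in 4 or 5 of the 6 fits without 1 library (0.0568 to 0.358). Among these fits were the ones without the same 2 libraries or BDNF replicate 3.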
